A study of Homo sapiens with 8 samples.

Results

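The TGF-beta, BMP and Nodal family of signals was described in 2D cell layers labelled as human intestinal epithelial cells (hIECs). Members were the protein-coding genes whose symbols name a BMP, a GDF, a TGF-beta, an inhibin or activin beta subunit, a Lefty, a Gremlin, an ID protein or a SMAD, together with INHA, NODAL, NOG, CHRD, FST, FSTL1, BAMBI, TGFBR1, TGFBR2, BMPR1A, BMPR1B and BMPR2. The rule used symbols only and found 56 of the 60558 genes in the files. The 8 libraries, in 4 groups of 2, were made from derivatives of the established stem cell line H9, which is of human embryonic origin. Normal hIECs received neither agent, normal hIECs with PM10 received 100 μg/ml of this reference particulate matter for 7 days, inflamed hIECs were kept for 10 days in the cytokines IFNγ (50 ng/ml) and TNFα (50 ng/ml), and inflamed hIECs with PM10 received both. These doses and times are from the study's methods, while GEO's labels state 10 days of treatment for every group. All groups shared the same differentiation, in which activin A, a dimer of the INHBA product and itself a ligand of this family, made endoderm, FGF4 and CHIR99021 made hindgut, and EGF, Wnt-C59 and valproic acid were in the final medium. One stem cell line was used, and nothing in the records says whether the 2 libraries of a group came from separate cultures, so the p-values measure only the spread between these libraries, which may be technical.

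Ligands of this family are secreted dimers that bring together type I and type II receptor kinases on the cell surface. TGF-beta, activin and Nodal receptors phosphorylate SMAD2 and SMAD3, BMP and most GDF receptors phosphorylate SMAD1, SMAD5 and SMAD9, and both sets enter the nucleus with SMAD4. Noggin, chordin, Gremlin and follistatin bind ligands outside the cell, Lefty proteins block Nodal signaling, BAMBI is a receptor without a kinase, and SMAD6 and SMAD7 act inside the cell. The ID genes are classical direct targets of BMP signaling, and in the gut BMP signaling is known to restrain stem cells while TGF-beta is known for its part in epithelial restraint and in matrix production.

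Levels were deposited as FPKM, which is fragments divided by transcript length and by the number of mapped fragments, so that levels of different genes can be set side by side. The lowest FPKM above 0 was 0.164 to 0.228 in the 8 libraries, a gene under that level is listed at 0, and total counts were not used here because the files hold FPKM only. Differences were taken on the log2(FPKM + 1) scale, which understates changes of weakly expressed genes, and tested with limma over 14206 genes, with Benjamini-Hochberg adjustment over all of them and a threshold of 0.05. Permuting 2 libraries against 2 exactly could reach no two-sided p-value under 0.333 for one gene, so no such test is given. Mitochondrially encoded genes held 17.02% of all FPKM in normal library 1, 24.2% in normal library 2 and 15.5% to 20.4% elsewhere.

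The label of intestinal epithelium was checked against marker genes. Most defining epithelial markers were absent from these FPKM values, so hIEC is used here only as the name in the labels. The study itself reports CDX2, VIL1, MUC2, LYZ and CHGA in its 2D hIECs by qPCR and immunostaining, which are not part of these data. Of 22 epithelial markers, 12 were listed at 0 in all libraries, among them CDX2, VIL1, KRT20, MUC2, LYZ and CHGA, and CDH1, the epithelial cadherin, was at 0 in all but 1 library, where it was 0.221 FPKM. KRT8 and KRT18, keratins of simple epithelia, were high, at 373 and 266 FPKM in normal library 1. VIM and COL3A1, which mark mesenchymal cells, were at 923 and 1034 FPKM in that library, and 1 of 20 mesenchymal markers was at 0 throughout. The summed epithelial markers were 659 to 668 FPKM in normal hIECs, 615 to 652 with PM10, 356 to 362 in inflamed hIECs and 299 to 317 in inflamed hIECs with PM10. KRT8 and KRT18 made up 95.4% to 97.2% of these sums. LGR5, the intestinal stem cell marker, went the other way, from 2.63 and 2.01 FPKM in normal to 5.68 and 5.26 FPKM in inflamed hIECs. It was at 8.28 and 7.92 FPKM in inflamed hIECs with PM10. The study reports the opposite for LGR5 by qPCR, a reduction with cytokines and in inflamed hIECs with PM10. The summed mesenchymal markers were 5832 to 5919, 5282 to 5296, 6675 to 6741 and 6021 to 6022 FPKM in the same order. Single mesenchymal markers moved both ways, 9 called higher and 6 lower with cytokines without PM10 and 8 each way with PM10, and ASPN fell from 84.3 and 70.4 FPKM in normal to 0.404 and 0.435 FPKM in inflamed hIECs. Only genes with 1 FPKM in 2 libraries were tested. ASPN reached that level only without cytokines, so it had to be lower with them. The summed neuronal markers, 5 of 14 of which were at 0 throughout, were 367 to 391 and 421 to 423 FPKM without cytokines and 211 to 214 and 213 to 217 FPKM with them. In bulk RNA, fewer cells of a type and less RNA per cell cannot be told apart, and the part of these marker lists in the results that follow was not tested. The 10 genes of the response to IFNγ and TNFα, which check the cytokine label, summed to 119 to 124 FPKM in normal hIECs and 3389 to 3433 FPKM in inflamed hIECs.

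Of the 56 members, 38 reached the minimum of 1 FPKM in 2 libraries and were tested. Another 6 (BMP5, GDF1, LEFTY1, INHA, CHRD and BMPR1B) stayed below it, and 12 were listed at 0 in all libraries, among them NODAL, BMP3, BMP8A, BMP8B, BMP10, BMP15, GDF2, GDF3, GDF9, INHBB and INHBC. The 38 tested members included 29 with at least 1 FPKM in all 8 libraries. LEFTY2, BMP6, BMP7, GDF7 and GDF10 reached the minimum only in libraries without cytokines, and BMP2 and NOG only in libraries with them, so these had to differ between the groups. In normal hIECs the highest mean levels belonged to FSTL1, a follistatin-like secreted protein, at 198 FPKM, ID3 at 167 FPKM and ID1 at 129 FPKM, followed by TGFB1 at 46.2, GDF15 at 35.8 and BAMBI at 33.7 FPKM. The lowest were NOG at 0.687 FPKM and BMP2 at 0.427 FPKM.

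**Figure D1:**
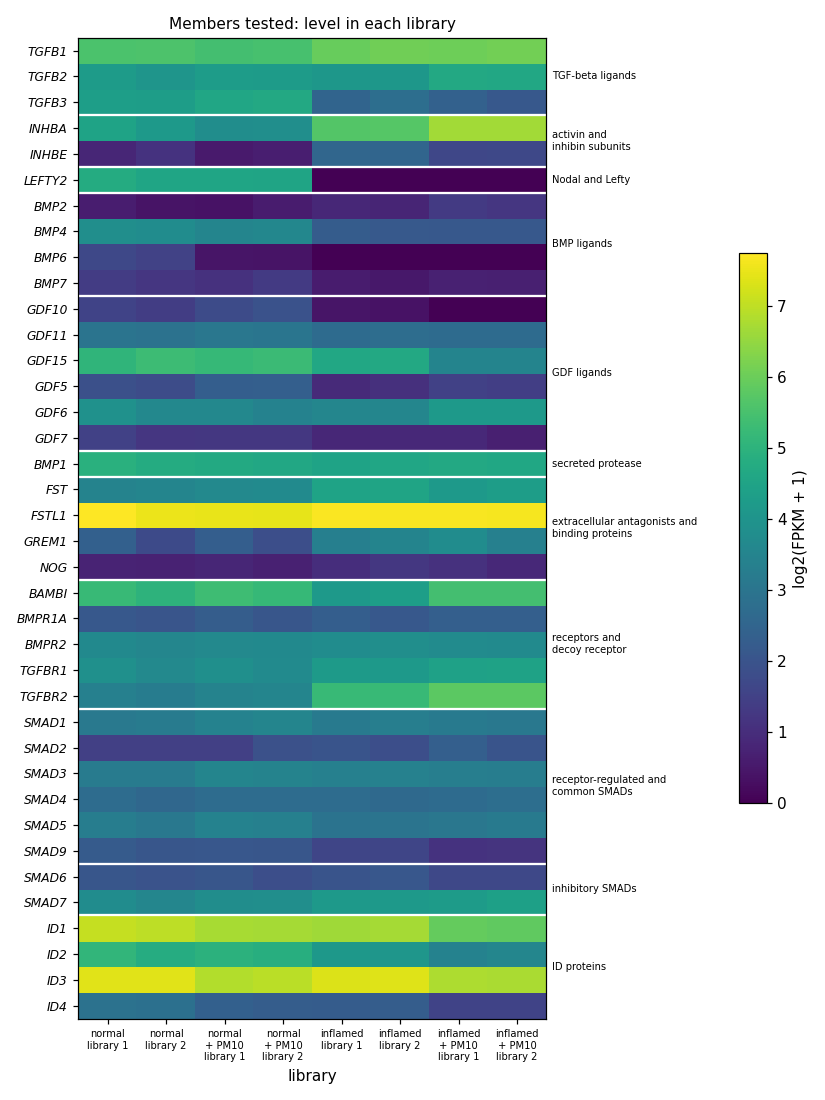
Level of each of the 38 tested members (rows, grouped by role) in each of the 8 libraries (columns), as log2(FPKM + 1) by colour. TGFBR2, INHBA and INHBE are brighter and TGFB3, LEFTY2, BMP4 and BMP6 darker in the 4 libraries with cytokines, and the 2 libraries of each group look alike.

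Cytokines lowered BMP4, TGFB3 and the ID genes ID1, ID2 and ID4. They raised the receptor TGFBR2, the activin subunit INHBA and the antagonists FST and GREM1. BMP6, BMP7 and LEFTY2 were lower too, but reached the minimum only in libraries without cytokines. Without PM10, 29 of the 38 tested members passed limma's threshold, 12 higher and 17 lower, where 56.2% of all genes tested passed it (25.9% higher and 30.3% lower). With PM10 in both groups, 31 passed, 13 higher and 18 lower, beside 65.4% of all genes (25.8% higher and 39.6% lower). A difference of at least 1 on the log2 scale was seen for 5 higher and 5 lower members without PM10, beside 9.39% of all genes (4.12% higher and 5.27% lower), and for 4 higher and 6 lower members with PM10, beside 13% of all genes (5.32% higher and 7.72% lower). The median size of the difference over the tested members was 0.48 without PM10 and 0.54 with PM10, and over all genes tested 0.30 and 0.38. Some tested members had to differ by the filter. Among the calls these are LEFTY2, BMP6, BMP7, GDF7 and GDF10 in both comparisons, NOG without PM10 and BMP2 with it. Past 1 on the log2 scale they are LEFTY2 and GDF10 in both comparisons and BMP6 without PM10. Their part in these counts follows from the filter and is no support for a response of the family. INHBE, higher and past 1 in both comparisons, also met the filter only through libraries with cytokines. Without cytokines, only normal library 2 reached 1 FPKM for it. The signed medians were near 0, at −0.04 and −0.07 for the members and −0.03 and −0.11 for all genes. These 2 comparisons share no library. They called 25 members in common, 86.2% of those called without PM10 and 80.6% of those called with it, 9 of them higher in both, 15 lower in both, and SMAD3 in opposite directions. Over all genes these shares were 86.8% and 74.7%, so the overlap is not particular to the members. Across the 38 members the differences of the 2 comparisons had a Pearson correlation of 0.908, beside 0.911 over all genes, given as a description across genes, which are not independent.

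**Figure D2:**
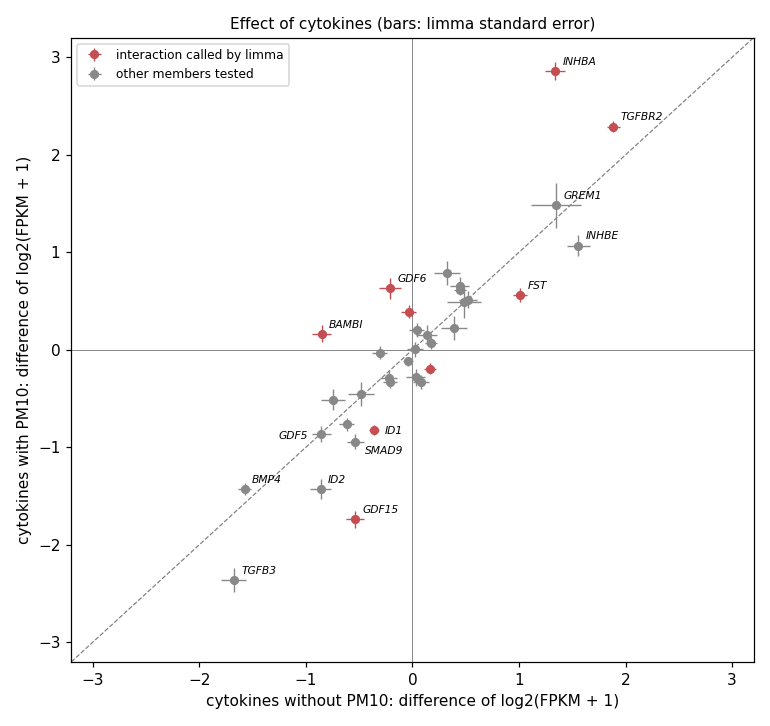
Difference between inflamed and normal hIECs on the log2(FPKM + 1) scale without PM10 (horizontal axis) and with PM10 (vertical axis) for the tested members other than LEFTY2, BMP6 and GDF10, which were at 0 in a group. Bars are limma's standard error, red points mark members whose interaction of PM10 and cytokines was called, and the dashed line marks equal differences. Most points lie near that line, INHBA, BAMBI and GDF6 lie above it, and GDF15 lies below it.

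PM10 lowered ID1, ID3 and ID4 in both normal and inflamed hIECs and raised GDF5 in both. In inflamed hIECs it also raised INHBA, BAMBI, TGFBR2, TGFB2 and GDF6 and lowered GDF15, INHBE, ID2 and SMAD9. In normal hIECs 8 of the 38 tested members passed the threshold, 3 higher and 5 lower, beside 9.23% of all genes tested (5.51% higher and 3.72% lower). In inflamed hIECs 17 passed, 7 higher and 10 lower, beside 15.2% of all genes (6.22% higher and 9.02% lower). Among the 7, BMP2 reached the minimum only in the libraries with both agents, so it had to be higher by the filter. Differences of at least 1 on the log2 scale were seen for 1 member in normal hIECs, which was lower, beside 0.577% of all genes (0.19% higher and 0.387% lower), and for 1 higher and 1 lower member in inflamed hIECs, beside 0.845% (0.317% higher and 0.528% lower). The 1 member in normal hIECs was BMP6, also among the 8 called. It reached the minimum only in the 2 normal libraries, so it had to be lower with PM10 by the filter. Its part in these counts is no support for a response of the family. The median size of the difference over the members was 0.16 in normal and 0.24 in inflamed hIECs, and 0.14 over all genes in both. The 2 comparisons share no library and called 5 members in common, 62.5% of the 8 and 29.4% of the 17, where the shares over all genes were 33% and 20%. Of these 5, INHBA moved in opposite directions, and the Pearson correlation of the 2 comparisons was 0.157 over the members and 0.244 over all genes. The count of 8 rested on single libraries, as did the calls over all genes. It was 3 and 2 without the first or second normal PM10 library and 12 without normal library 1, while the 1311 calls over all genes became 194, 221 and 2627. The count of 17 was 9 to 11 without any 1 of the 4 inflamed libraries, and the 2165 calls over all genes became 675 to 742.

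**Figure D3:**
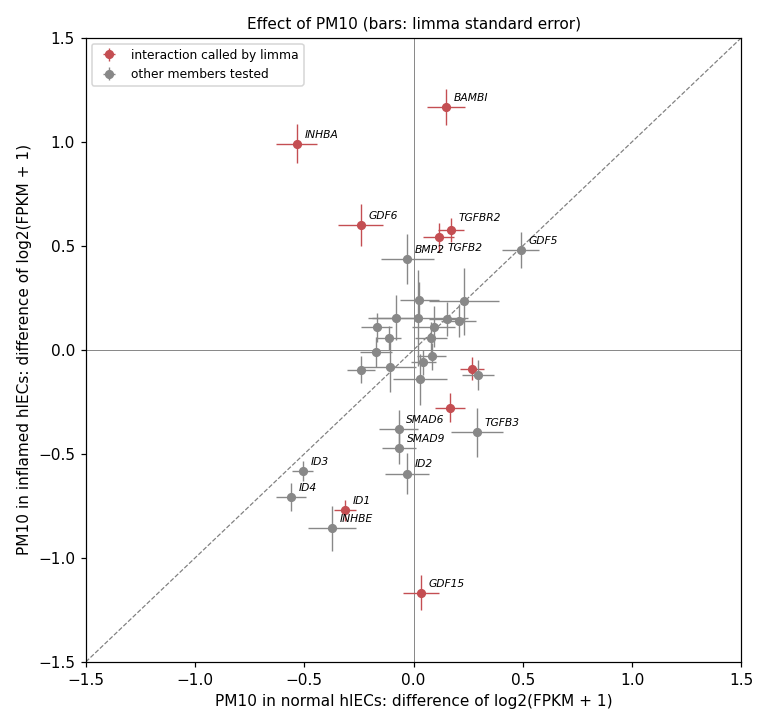
Difference made by PM10 on the log2(FPKM + 1) scale in normal hIECs (horizontal axis) and in inflamed hIECs (vertical axis) for the tested members other than LEFTY2, BMP6 and GDF10, which were at 0 in a group. Bars are limma's standard error, red points mark members whose interaction of PM10 and cytokines was called, and the dashed line marks equal differences. ID3, ID4 and GDF5 lie near the line, INHBA and BAMBI far above it and GDF15 far below it.

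Whether PM10 acted differently in inflamed and in normal hIECs was tested as the interaction in the same fit. It was called for 11 of the 38 tested members, 6 positive and 5 negative, beside 6.6% of all genes (2.11% positive and 4.48% negative). INHBA, GDF15 and BAMBI were called under every alternative run. BMP6 was too, but it reached the minimum only in normal hIECs without PM10 and was at 0 with cytokines. Its interaction therefore follows from the filter and is no support for a different effect of PM10. The count fell without any 1 of the normal PM10, inflamed or inflamed PM10 libraries and rose without either normal library. Calls over all genes fell and rose in the same fits, so this is not particular to the members. The members are described in turn by their roles.

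Among the TGF-beta ligands, TGFB1, the main TGF-beta of immune and stromal tissue, is encoded at chr19:41301587-41353922 on the minus strand of GRCh38. It measured 46.1 and 46.4 FPKM in normal hIECs, 41.8 and 43.5 FPKM with PM10, 60.5 and 66.4 FPKM in inflamed hIECs and 64.6 and 67.4 FPKM in inflamed hIECs with PM10. Every library with cytokines was above every library without them. The rise was 0.45 ± 0.06 (limma SE) on the log2 scale without PM10 (limma adjusted p = 0.000455) and 0.62 ± 0.06 with PM10 (limma adjusted p = 6.62e-05). TGFB3, a TGF-beta known from development and wound healing (chr14:75958097-75983011, minus strand), went the other way. It measured 19.4 and 18.9 FPKM in normal hIECs, 22.8 and 24.4 FPKM with PM10, 4.68 and 6.01 FPKM in inflamed hIECs and 4.24 and 3.38 FPKM in inflamed hIECs with PM10. The fall was −1.68 ± 0.12 without PM10 (limma adjusted p = 2.3e-05) and −2.36 ± 0.12 with PM10 (limma adjusted p = 3.05e-06). TGFB2 (chr1:218345336-218444619, plus strand) measured 18.0 and 15.5 FPKM in normal hIECs, 18.2 and 18.1 FPKM with PM10, 16.3 and 16.3 FPKM in inflamed hIECs and 24.3 and 24.0 FPKM in inflamed hIECs with PM10. Only the group with both agents stood apart, higher by 0.54 ± 0.07 than inflamed hIECs (limma adjusted p = 0.00367), and the cytokine difference without PM10 was −0.03. The TGFB2 interaction of 0.43 was called at an adjusted p of 0.0498 by limma. It was lost without any 1 of the normal PM10, inflamed or inflamed PM10 libraries, at 0.42 to 0.43. It was also lost with a smaller pseudocount, without the filter or limma's trend, and with the replicate number as a block.

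The 3 TGF-beta ligands contributed unequally to their sum in the 4 groups. TGFB1 to TGFB3 summed to 80.7 to 94.8 FPKM over the 8 libraries. TGFB3 was 23.3% and 23.4% of that sum in normal hIECs, 27.6% and 28.4% with PM10, 5.74% and 6.77% in inflamed hIECs and 4.55% and 3.57% in inflamed hIECs with PM10. TGFB1 was 55.2% and 57.4%, 50.4% and 50.6%, 74.3% and 74.9%, and 69.4% and 71.1% in the same order. These shares are descriptions without a test. Exons of TGFB1 overlap HNRNPUL1, at 66.3 to 72.9 FPKM in these libraries, and those of TGFB2 overlap TGFB2-OT1, at 1.96 to 4.82 FPKM, and since the libraries carry no strand, reads of such pairs cannot be told apart with certainty.

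Among the activin and inhibin subunits, INHBA, whose product dimerizes to activin A (chr7:41667168-41705834, minus strand), had the largest interaction among the tested members. It measured 21.7 and 17.2 FPKM in normal hIECs, 12.98 and 13.08 FPKM with PM10, 49.4 and 51.3 FPKM in inflamed hIECs and 101 and 101 FPKM in inflamed hIECs with PM10. The groups did not overlap. Cytokines raised it by 1.34 ± 0.09 without PM10 (limma adjusted p = 2.26e-05) and by 2.86 ± 0.09 with PM10 (limma adjusted p = 3.73e-07). PM10 lowered it by 0.53 on the log2 scale in normal hIECs, at a difference of −0.53 ± 0.09 (limma adjusted p = 0.0193), and raised it by 0.99 ± 0.09 in inflamed hIECs (limma adjusted p = 0.0012). The interaction was 1.52 ± 0.13 (limma adjusted p = 0.00178). The fall in normal hIECs lost its call without either normal PM10 library, at −0.54 and −0.53, and with only the compared groups in the fit. The other INHBA calls held under every alternative. INHBE, a liver-typical activin beta subunit, measured 0.776 and 1.18 FPKM in normal hIECs, 0.470 and 0.569 FPKM with PM10, 4.86 and 4.71 FPKM in inflamed hIECs and 2.16 and 2.22 FPKM in inflamed hIECs with PM10. Cytokines raised INHBE by 1.56 ± 0.11 without PM10 (limma adjusted p = 2.22e-05), and PM10 lowered it in inflamed hIECs, at −0.86 ± 0.11 (limma adjusted p = 0.00337). INHBA and INHBE thus moved together with cytokines and apart with PM10 in inflamed hIECs. INHA, the inhibin alpha subunit, lay between 0.287 and 1.32 FPKM and was not tested.

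**Figure D4:**
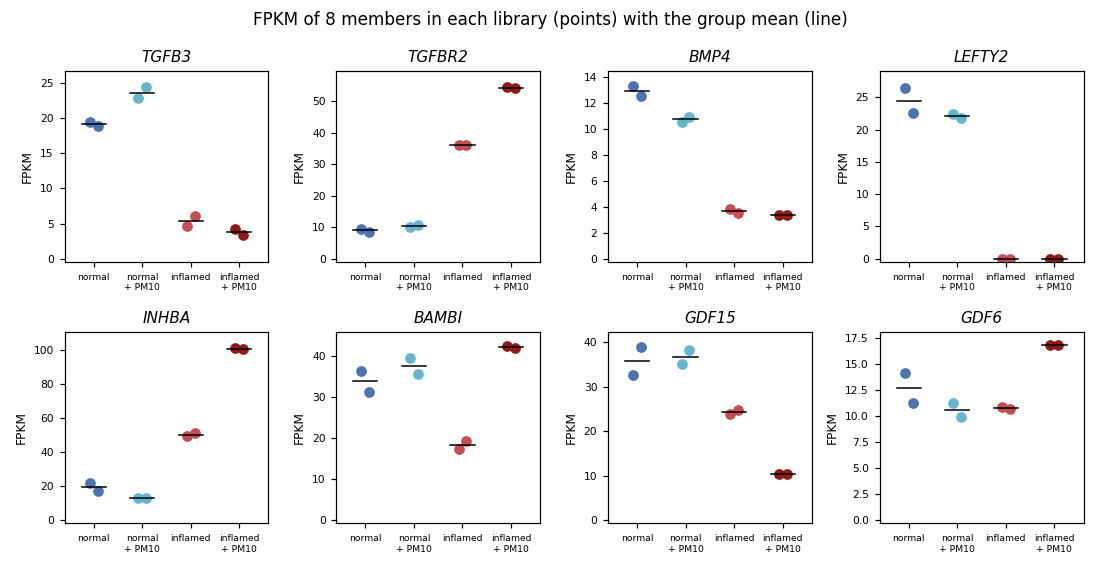
FPKM (vertical axes, linear, from 0) of 8 members in each library by group (horizontal axes). Points are the 2 libraries of a group and lines their mean. INHBA reaches 101 FPKM with both agents, LEFTY2 is at 0 in the 4 libraries with cytokines, BAMBI is lowest in inflamed hIECs without PM10, and GDF15 is lowest in inflamed hIECs with PM10.

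Of the Nodal and Lefty genes, LEFTY2, a feedback inhibitor of Nodal signaling (chr1:225936598-225941383, minus strand), measured 26.4 and 22.6 FPKM in normal hIECs and 22.5 and 21.8 FPKM with PM10, and was listed at 0 in the 4 libraries with cytokines. No fold is given against these zeros, and limma called it lower without PM10 (adjusted p = 2.54e-08) and with PM10 (adjusted p = 2.3e-08). The difference made by PM10 in normal hIECs was −0.14 with a 95% interval of −0.33 to 0.06. LEFTY1 showed the same pattern far lower, at 0.814 and 0.600 FPKM in normal hIECs, 0.630 and 0.971 FPKM with PM10 and 0 in all libraries with cytokines, and was under the minimum for a test. The transcripts of LEFTY1 and LEFTY2 are 81.36% identical over 1502 aligned bases, and 14.08% of the 100-base windows of LEFTY1 also occur in LEFTY2, so reads from such stretches may be counted for either gene. NODAL itself was at 0 in all 8 libraries. Of 14 genes listed as Nodal or activin targets, a list that includes NODAL, 10 were at 0 throughout, NODAL among them.

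Among the BMP ligands, BMP4, the best expressed BMP ligand here (chr14:53949736-53958761, minus strand), measured 13.3 and 12.5 FPKM in normal hIECs, 10.6 and 10.9 FPKM with PM10, 3.80 and 3.52 FPKM in inflamed hIECs and 3.34 and 3.39 FPKM in inflamed hIECs with PM10. All libraries with cytokines were below all without. The fall was −1.57 ± 0.06 without PM10 (limma adjusted p = 1.32e-06) and −1.43 ± 0.06 with PM10 (limma adjusted p = 1.73e-06). PM10 in normal hIECs gave −0.24 ± 0.06, just above the threshold (limma adjusted p = 0.0568). BMP7, a BMP known from kidney and bone, measured 1.58 and 1.31 FPKM in normal hIECs, 1.16 and 1.47 FPKM with PM10, 0.515 and 0.402 FPKM in inflamed hIECs and 0.630 and 0.616 FPKM in inflamed hIECs with PM10, and was called lower with cytokines in both comparisons, at −0.74 ± 0.11 and −0.51 ± 0.11. BMP2, a close relative of BMP4, did not fall. It measured 0.524 and 0.330 FPKM in normal hIECs, 0.299 and 0.502 FPKM with PM10, 0.817 and 0.748 FPKM in inflamed hIECs and 1.51 and 1.32 FPKM in inflamed hIECs with PM10. Its cytokine difference was called only with PM10, at 0.79 ± 0.12 (limma adjusted p = 0.000816), and was 0.32 ± 0.12 without PM10 (limma adjusted p = 0.0511). For BMP2, PM10 in inflamed hIECs gave 0.44 ± 0.12 (limma adjusted p = 0.0496). That call was lost with a smaller pseudocount, without the filter and with the replicate number as a block. It was also lost without any 1 of the normal PM10, inflamed or inflamed PM10 libraries, at 0.38 to 0.50. The ratio of INHBA to BMP4 in FPKM was 1.38 to 1.63 in normal hIECs, 1.20 to 1.23 with PM10, 12.99 to 14.56 in inflamed hIECs and 29.7 to 30.3 in inflamed hIECs with PM10.

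BMP6, the BMP that raises hepcidin in iron control, is the member that PM10 lowered most in normal hIECs. It reached the minimum only in the 2 normal libraries, so by the filter it had to be lower with PM10. It measured 2.203 and 1.888 FPKM in normal hIECs and 0.363 and 0.326 FPKM with PM10, and was listed at 0 in the 4 libraries with cytokines. PM10 gave −1.18 ± 0.10 in normal hIECs (limma adjusted p = 0.00196), and this call was the only one among members that held when the fit held only the 2 groups compared. BMP6 exons overlap TXNDC5, at 74.2 to 104 FPKM, and the read-through gene BLOC1S5-TXNDC5, which was at 9.17 and 14.7 FPKM in normal hIECs, at 0 in both normal libraries with PM10 and at 14.8 to 27.7 FPKM in the 4 libraries with cytokines. Reads of these genes cannot be separated by strand here. BMP5 lay between 0.656 and 0.868 FPKM without cytokines and was at 0 with them, and was not tested. BMP1, which despite its name is a protease that processes procollagen and cleaves chordin, lay between 21.4 and 29.2 FPKM and was called lower with cytokines without PM10, at −0.30 ± 0.07, a call lost without inflamed library 1 (−0.26).

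Among the GDF ligands, GDF15, a stress-induced ligand that acts through its own receptor GFRAL (chr19:18374731-18389176, plus strand), measured 32.8 and 38.9 FPKM in normal hIECs, 35.1 and 38.2 FPKM with PM10, 23.9 and 24.7 FPKM in inflamed hIECs and 10.2 and 10.3 FPKM in inflamed hIECs with PM10. The normal groups overlapped, and the 2 inflamed groups lay below them and apart from each other. Cytokines lowered it by 0.54 on the log2 scale without PM10, at −0.54 ± 0.08 (limma adjusted p = 0.00123), and PM10 in inflamed hIECs gave −1.17 ± 0.08 (limma adjusted p = 0.000397). In normal hIECs PM10 gave 0.03 ± 0.08, with a 95% interval of −0.16 to 0.23, and the interaction was −1.20 ± 0.12 (limma adjusted p = 0.00247). GDF6, a BMP-like ligand of skeletal and eye development, measured 14.1 and 11.2 FPKM in normal hIECs, 11.2 and 9.87 FPKM with PM10, 10.8 and 10.6 FPKM in inflamed hIECs and 16.8 and 16.8 FPKM in inflamed hIECs with PM10. Only the group with both agents stood above the rest, with 0.60 ± 0.10 for PM10 in inflamed hIECs (limma adjusted p = 0.0105) and an interaction of 0.84 ± 0.15 (limma adjusted p = 0.0207). Leaving out any 1 of the 4 inflamed libraries lost the first call, at 0.59 to 0.61, and leaving out any 1 of these or of the normal PM10 libraries lost the second, at 0.76 to 0.92.

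GDF5, a joint morphogen that signals through BMP receptors, was lowered by cytokines and raised by PM10. It measured 2.72 and 2.48 FPKM in normal hIECs, 3.98 and 4.13 FPKM with PM10, 0.890 and 1.10 FPKM in inflamed hIECs and 1.84 and 1.72 FPKM in inflamed hIECs with PM10. The groups did not overlap, and the differences were close on both backgrounds, at −0.85 and −0.86 ± 0.09 for cytokines and 0.49 and 0.48 ± 0.09 for PM10, with an interaction of −0.01. The PM10 call was lost in normal hIECs without normal library 2 or either normal PM10 library, at 0.44 to 0.51. It was also lost there with only the compared groups in the fit. In inflamed hIECs it was lost without inflamed library 1 or either inflamed PM10 library, at 0.40 to 0.51. GDF10, also called BMP3B, measured 1.92 and 1.67 FPKM in normal hIECs, 2.44 and 2.83 FPKM with PM10 and 0.360 and 0.292 FPKM in inflamed hIECs, and was at 0 in both inflamed libraries with PM10. Cytokines gave −1.07 ± 0.10 without PM10 (limma adjusted p = 8.95e-05). The call of GDF10 for PM10 in inflamed hIECs (limma adjusted p = 0.0359) was lost without any 1 of the normal PM10, inflamed or inflamed PM10 libraries, where 0.360 and 0.292 FPKM lie close to the lowest level above 0. GDF7 lay between 1.32 and 1.83 FPKM without cytokines and between 0.610 and 0.865 FPKM with them, and GDF11, a relative of myostatin, between 6.49 and 7.36 FPKM and between 5.46 and 5.84 FPKM, and both were called lower in both cytokine comparisons. Without PM10, both calls were lost without normal library 1 or inflamed library 1, at −0.48 to −0.34 for GDF7 and at −0.17 for GDF11. With PM10, the call of GDF7 was lost without either normal PM10 library or inflamed PM10 library 2, at −0.46 to −0.35. GDF1 was at 3.11 FPKM in 1 normal PM10 library and under 1 FPKM in the other 7.

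Among the antagonists and binding proteins, FST, follistatin, which binds activin, measured 10.1 and 10.6 FPKM in normal hIECs, 11.46 and 11.98 FPKM with PM10, 21.6 and 22.0 FPKM in inflamed hIECs and 16.7 and 18.9 FPKM in inflamed hIECs with PM10. Cytokines raised it by 1.01 ± 0.07 without PM10 (limma adjusted p = 2e-05) and by 0.56 ± 0.07 with PM10 (limma adjusted p = 0.000282). The smaller rise with PM10 was an interaction of −0.45 ± 0.10 (limma adjusted p = 0.0422). Its call was lost without any 1 of the 8 libraries, at −0.53 to −0.36. It was also lost without the filter or limma's trend, and with median centring or quantile normalization. The ratio of INHBA to FST in FPKM was 1.62 to 2.16 in normal hIECs, 1.09 to 1.13 with PM10, 2.29 to 2.33 in inflamed hIECs and 5.33 to 6.05 in inflamed hIECs with PM10. GREM1, Gremlin 1, a BMP antagonist made by the stroma around intestinal crypts, varied most between libraries of a group. It measured 4.17 and 2.37 FPKM in normal hIECs, 3.93 and 2.63 FPKM with PM10, 9.08 and 10.2 FPKM in inflamed hIECs and 12.5 and 9.37 FPKM in inflamed hIECs with PM10. The rise was 1.35 ± 0.23 without PM10 (limma adjusted p = 0.00195) and 1.48 ± 0.23 with PM10 (limma adjusted p = 0.000938), and all libraries with cytokines were above all without. NOG, noggin, lay between 0.654 and 1.41 FPKM, and its call without PM10, at 0.39 ± 0.12, was lost without either normal library or inflamed library 2, at 0.26 to 0.41. FSTL1 lay between 173 and 213 FPKM, and CHRD, chordin, stayed at or under 0.699 FPKM.

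Among the receptors, TGFBR2, the type II receptor that binds TGF-beta (chr3:30606601-30694142, plus strand), measured 9.46 and 8.60 FPKM in normal hIECs, 10.0 and 10.6 FPKM with PM10, 36.1 and 35.9 FPKM in inflamed hIECs and 54.5 and 54.0 FPKM in inflamed hIECs with PM10. Cytokines raised it by 1.88 ± 0.06 without PM10 (limma adjusted p = 4.08e-07) and by 2.29 ± 0.06 with PM10 (limma adjusted p = 1.12e-07). PM10 raised it in inflamed hIECs by 0.58 ± 0.06 (limma adjusted p = 0.00144). Its interaction was 0.41 ± 0.08 (limma adjusted p = 0.0333). That call was lost without any 1 of the normal PM10, inflamed or inflamed PM10 libraries, at 0.37 to 0.44. It was lost as well without limma's trend or with the replicate number as a block. TGFBR1, the type I partner, measured 13.8 and 11.5 FPKM in normal hIECs, 13.5 and 12.2 FPKM with PM10, 17.6 and 17.3 FPKM in inflamed hIECs and 20.6 and 21.0 FPKM in inflamed hIECs with PM10. Its rise with cytokines was smaller, 0.44 ± 0.09 without PM10 (limma adjusted p = 0.00397) and 0.66 ± 0.09 with PM10 (limma adjusted p = 0.000433). The BMP receptors differed less between groups. BMPR2 lay between 10.8 and 13.1 FPKM, and its call without PM10, at 0.18 ± 0.06, was lost without any 1 library other than normal library 1, at 0.12 to 0.21. BMPR1A lay between 3.13 and 4.10 FPKM and was called in no comparison, and BMPR1B did not exceed 0.296 FPKM.

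BAMBI, the receptor without a kinase that dampens signals of this family (chr10:28677510-28682932, plus strand), was low only in inflamed hIECs without PM10. It measured 36.2 and 31.3 FPKM in normal hIECs, 39.3 and 35.6 FPKM with PM10, 17.2 and 19.2 FPKM in inflamed hIECs and 42.3 and 41.8 FPKM in inflamed hIECs with PM10. The cytokine difference was −0.85 ± 0.09 without PM10 (limma adjusted p = 0.000142) and 0.17 ± 0.09 with PM10 (limma adjusted p = 0.132). PM10 gave 1.17 ± 0.09 in inflamed hIECs (limma adjusted p = 0.000468) and 0.15 ± 0.09 in normal hIECs, with a 95% interval of −0.06 to 0.35. The interaction of 1.02 ± 0.12 (limma adjusted p = 0.00619) held under every alternative.

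Of the 6 receptor-regulated and common SMADs, 2 were called higher and 2 lower with cytokines without PM10, and 1 higher and 4 lower with PM10, which is 66.7% and 83.3% of them beside 56.2% and 65.4% of all genes. SMAD9, one of the BMP-regulated SMADs, measured 3.66 and 3.23 FPKM in normal hIECs, 3.30 and 3.19 FPKM with PM10, 2.04 and 2.09 FPKM in inflamed hIECs and 1.19 and 1.23 FPKM in inflamed hIECs with PM10. It fell with cytokines, at −0.54 ± 0.08 without PM10 (limma adjusted p = 0.00089) and −0.94 ± 0.08 with PM10 (limma adjusted p = 3.68e-05). PM10 in inflamed hIECs gave −0.47 ± 0.08 (limma adjusted p = 0.00954), a call lost without any 1 of the 4 inflamed libraries, at −0.49 to −0.46. SMAD7, the inhibitory SMAD that TGF-beta itself induces, measured 12.6 and 10.8 FPKM in normal hIECs, 12.9 and 13.3 FPKM with PM10, 17.2 and 17.2 FPKM in inflamed hIECs and 18.1 and 20.3 FPKM in inflamed hIECs with PM10, a rise of 0.52 ± 0.08 both without PM10 (limma adjusted p = 0.00138) and with PM10 (limma adjusted p = 0.00113). SMAD6, the inhibitory SMAD of the BMP arm, lay between 2.19 and 3.33 FPKM and was lowest in inflamed hIECs with PM10, at 2.22 and 2.19 FPKM. SMAD4, the common partner, lay between 5.05 and 5.94 FPKM and was called in no comparison. SMAD1, SMAD2, SMAD3 and SMAD5 lay between 1.74 and 10.5 FPKM, with differences between −0.33 and 0.49 in the 4 comparisons, and most of their calls were lost when single libraries were left out.

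The 4 ID genes encode helix-loop-helix proteins without a DNA-binding region, which hold back differentiation factors. ID1 (chr20:31605283-31606515, plus strand) measured 132 and 125 FPKM in normal hIECs, 104 and 102 FPKM with PM10, 97.8 and 102 FPKM in inflamed hIECs and 59.3 and 56.9 FPKM in inflamed hIECs with PM10. It was called lower with either agent, at −0.36 ± 0.05 for cytokines (limma adjusted p = 0.00063) and −0.31 ± 0.05 for PM10 in normal hIECs (limma adjusted p = 0.0136), and PM10 in inflamed hIECs gave −0.77 ± 0.05 (limma adjusted p = 0.000245). ID3 (chr1:23557926-23559501, minus strand) measured 166 and 168 FPKM in normal hIECs, 114 and 121 FPKM with PM10, 161 and 163 FPKM in inflamed hIECs and 109 and 107 FPKM in inflamed hIECs with PM10. PM10 lowered it, at −0.51 ± 0.05 in normal hIECs (limma adjusted p = 0.00227) and −0.58 ± 0.05 in inflamed hIECs (limma adjusted p = 0.000606). The cytokine differences of ID3 were smaller and were not called, at −0.04 without PM10 (95% interval −0.15 to 0.07) and −0.12 with PM10 (95% interval −0.23 to −0.01, limma adjusted p = 0.0559, just above the threshold).

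ID2 (chr2:8678845-8684461, plus strand) showed the reverse in normal hIECs. It measured 33.1 and 27.0 FPKM in normal hIECs, 30.7 and 27.9 FPKM with PM10, 16.4 and 15.6 FPKM in inflamed hIECs and 9.86 and 10.7 FPKM in inflamed hIECs with PM10. Cytokines gave −0.86 ± 0.10 without PM10 (limma adjusted p = 0.000268), PM10 gave −0.03 ± 0.10 in normal hIECs and −0.59 ± 0.10 in inflamed hIECs (limma adjusted p = 0.00984), and the interaction of −0.56 did not pass (limma adjusted p = 0.0594). ID4 (chr6:19837370-19842197, plus strand) measured 6.49 and 6.26 FPKM in normal hIECs, 4.17 and 3.83 FPKM with PM10, 3.76 and 3.86 FPKM in inflamed hIECs and 1.97 and 1.92 FPKM in inflamed hIECs with PM10. Both agents lowered it, with −0.62 ± 0.07 for cytokines (limma adjusted p = 0.000214) and −0.56 ± 0.07 and −0.71 ± 0.07 for PM10 in normal and inflamed hIECs (limma adjusted p = 0.00574 and 0.00127). Summed over the 4 genes, ID expression was 337 and 327 FPKM in normal hIECs, 253 and 255 FPKM with PM10, 279 and 284 FPKM in inflamed hIECs and 180 and 176 FPKM in inflamed hIECs with PM10. In normal hIECs the PM10 calls of ID1 were lost without either normal PM10 library (−0.33 and −0.30) and that of ID4 without the second (−0.51), and with only the 2 groups in the fit those of ID1, ID3 and ID4 were all lost. In inflamed hIECs the call of ID2 was lost without either inflamed library or inflamed PM10 library 1, at −0.63 to −0.54. The interaction of ID1, −0.46 ± 0.07 (limma adjusted p = 0.0136), was lost without either normal PM10 library, inflamed library 2 or inflamed PM10 library 2, at −0.47 to −0.43.

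**Figure D5:**
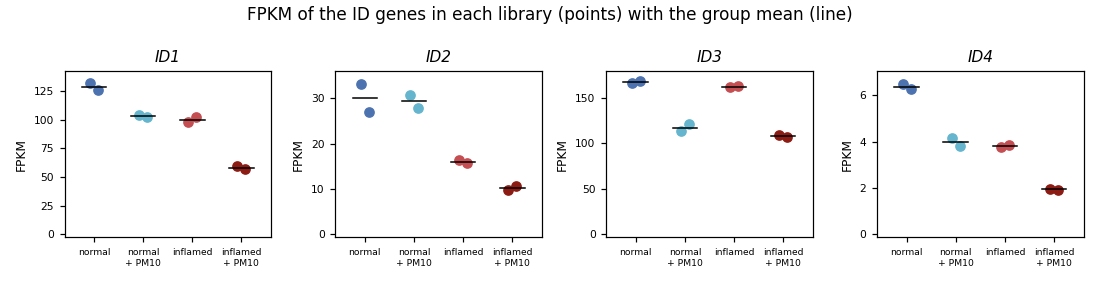
FPKM (vertical axes, linear, from 0) of the 4 ID genes in each library by group (horizontal axes). Points are the 2 libraries of a group and lines their mean. ID1 and ID4 step down with either agent and are lowest with both, ID2 is low with cytokines, and ID3 is low with PM10.

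The promoters of the ID genes, all of which were called lower with PM10 in inflamed hIECs, and of BAMBI, which was called higher, are shown because SMADs of the BMP arm are known to act on such genes directly. RefSeq's promoters (GRCh38.p14) matched 46 of the 56 members and 31 of the 38 tested ones. The 250 bases before the annotated start are printed 5′ to 3′ on the gene's strand, for ID1 (chr20:31605039-31605288), ID2 (chr2:8681806-8682055), ID3 (chr1:23559502-23559751, minus strand), ID4 (chr6:19837120-19837369) and BAMBI (chr10:28677271-28677520), with capitals marking matches to the motifs searched.
ID1: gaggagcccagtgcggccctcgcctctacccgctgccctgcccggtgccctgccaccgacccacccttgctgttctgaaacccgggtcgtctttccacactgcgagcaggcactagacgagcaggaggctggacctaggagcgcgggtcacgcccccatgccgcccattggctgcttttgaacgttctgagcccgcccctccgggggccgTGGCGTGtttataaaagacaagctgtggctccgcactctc
ID2: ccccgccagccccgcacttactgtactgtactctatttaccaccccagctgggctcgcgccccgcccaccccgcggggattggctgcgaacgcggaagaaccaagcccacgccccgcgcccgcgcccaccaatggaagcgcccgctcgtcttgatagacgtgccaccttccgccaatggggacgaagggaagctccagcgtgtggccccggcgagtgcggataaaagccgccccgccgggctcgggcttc
ID3: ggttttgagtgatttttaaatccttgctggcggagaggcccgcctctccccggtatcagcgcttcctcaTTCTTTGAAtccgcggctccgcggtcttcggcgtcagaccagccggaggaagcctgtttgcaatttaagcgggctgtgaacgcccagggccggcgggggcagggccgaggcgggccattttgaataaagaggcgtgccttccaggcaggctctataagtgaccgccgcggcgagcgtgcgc
ID4: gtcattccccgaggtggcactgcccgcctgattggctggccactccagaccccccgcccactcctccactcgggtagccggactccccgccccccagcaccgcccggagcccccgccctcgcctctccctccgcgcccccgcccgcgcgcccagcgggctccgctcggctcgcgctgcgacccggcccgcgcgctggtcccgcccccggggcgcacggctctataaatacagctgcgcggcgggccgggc
BAMBI: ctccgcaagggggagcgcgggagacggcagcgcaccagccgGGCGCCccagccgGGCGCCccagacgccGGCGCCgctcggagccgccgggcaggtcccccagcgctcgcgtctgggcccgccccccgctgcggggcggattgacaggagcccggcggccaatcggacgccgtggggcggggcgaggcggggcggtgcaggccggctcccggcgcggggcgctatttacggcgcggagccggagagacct

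The capitals differ between the genes. BAMBI holds the BMP SMAD motif GGCGCC 3 times, starting 209, 196 and 181 bases before the start, and none of the ID promoters holds it in this window. ID1 holds the aryl hydrocarbon receptor motif TNGCGTG 40 bases before its start, ID3 holds the STAT motif TTCNNNGAA 181 bases before its start, and the ID2 and ID4 windows match none of the 7 motifs. Searched on both strands, GGCGCC was in 16.1% of 27305 promoters and in 9 of the 31 of tested members (BAMBI, BMP4, BMPR2, FSTL1, GDF10, GREM1, SMAD2, SMAD3 and SMAD4). TNGCGTG was in 4.53% of all promoters and 2 of the 31 (ID1 and TGFB1), and TTCNNNGAA in 6.78% and 1 (ID3). The SMAD palindrome GTCTAGAC was in 0.176% and 1 (SMAD6), the AP-1 motif TGANTCA in 6.6% and 2 (FST and SMAD1), an NF-kB motif in 1.73% and none, and an interferon-response motif, which can share letters with TTCNNNGAA, in 3.07% and none. A match is a run of letters, not a bound site.

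Other genes of the pathway were described by lists, as counts beside the shares of all genes given for each comparison. Of 17 tested genes listed as BMP targets, which include the ID genes, SMAD6, SMAD7, SMAD9 and BAMBI, 2 were called higher and 11 lower with cytokines both without and with PM10, and 1 higher and 8 lower with PM10 in inflamed hIECs. Among the targets that are not members, 9 were tested, of which 1 was called higher and 6 lower with cytokines both without and with PM10. Of these 9, HEY1 and DLX3 reached the minimum only in libraries without cytokines, so they had to be lower with them by the filter. Their part in the counts and shares of this list is no support for a response of BMP targets. In each of these comparisons 76.5% of the 17 and 77.8% of the 9 were called, beside 56.2% and 65.4% of all genes. With PM10 in inflamed hIECs 52.9% of the 17 were called, beside 15.2% of all genes. For PM10 itself, limma called 0 of these 9 in normal hIECs, where HES1 and HEY1 had unadjusted limma p-values of 0.00768 and 0.0339, and 2, both lower, in inflamed hIECs, so most of the calls for PM10 in this list were those of members. HEY1, a Notch- and BMP-responsive repressor, measured 6.57 and 6.25 FPKM in normal hIECs and 0.859 and 0.488 FPKM in inflamed hIECs (−2.16 ± 0.12, limma adjusted p = 5.84e-06). HES1, of the same repressor class, measured 42.6 and 42.0 FPKM and 19.3 and 20.7 FPKM (−1.05 ± 0.05). DLX3, a homeobox gene, was at 1.47 to 1.78 FPKM without cytokines and at 0 with them. RUNX2, the osteoblast factor and the one of these called higher without PM10 (1.12 ± 0.29), measured 3.43 and 3.30 FPKM and 6.93 and 10.4 FPKM. With PM10 in both groups its libraries overlapped, at 3.84 and 7.83 FPKM in normal and 6.15 and 8.13 FPKM in inflamed hIECs. The one called higher there was another gene.

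Of 20 genes listed as TGF-beta targets, 12 were called higher and 4 lower with cytokines without PM10, 14 higher and 3 lower with PM10, 4 higher and 6 lower for PM10 in normal hIECs and 5 higher and 4 lower for PM10 in inflamed hIECs. These are 80%, 85%, 50% and 45% of them, beside 56.2%, 65.4%, 9.23% and 15.2% of all genes. TNC, tenascin C of the matrix, measured 85.1 and 83.8 FPKM in normal hIECs and 513 and 544 FPKM in inflamed hIECs (2.63 ± 0.05). LTBP2, a latent TGF-beta binding protein relative, measured 11.3 and 11.02 FPKM and 49.4 and 51.6 FPKM (2.08 ± 0.05). COL3A1, a fibrillar collagen, went the other way, from 1034 and 1014 FPKM to 706 and 709 FPKM (−0.53).

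Of 14 tested extracellular antagonists and latency proteins that are not members, 3 were called higher and 7 lower with cytokines without PM10. That is 71.4% of them, beside 56.2% of all genes. CHRDL1, a chordin-like BMP antagonist, measured 4.26 and 4.75 FPKM in normal hIECs and 13.2 and 12.7 FPKM with PM10, a rise of 1.34 ± 0.08 (limma adjusted p = 0.000404), and was at 0 in the 4 libraries with cytokines. It reached the minimum only without cytokines, so it had to be lower with them by the filter. LTBP1, which holds latent TGF-beta in the matrix, measured 45.4 and 40.0 FPKM in normal hIECs and 16.7 and 18.5 FPKM in inflamed hIECs (−1.23 ± 0.07). TWSG1, a BMP-binding protein, was called higher at 0.38 ± 0.06. Of 6 tested other receptors, 2 were called higher and 2 lower with cytokines without PM10, which is 66.7% beside 56.2% of all genes. ACVR2A, an activin type II receptor, measured 5.84 and 4.94 FPKM in normal hIECs, 8.16 and 6.87 FPKM with PM10, 11.9 and 10.3 FPKM in inflamed hIECs and 7.98 and 7.73 FPKM in inflamed hIECs with PM10, so that it was highest in inflamed hIECs without PM10. ENG, endoglin, a co-receptor, was lower with either agent, at 39.9 and 36.5, 26.4 and 27.1, 29.5 and 30.8, and 22.2 and 23.1 FPKM in the 4 groups in the same order. Of 14 tested intracellular regulators, 4 were called higher and 2 lower with cytokines without PM10. That is 42.9% of them, below the 56.2% of all genes. Among those called were the ubiquitin ligase SMURF2 (0.68 ± 0.06), the deubiquitinase USP15 (0.70 ± 0.08), the SMAD corepressor TGIF1 (−0.76 ± 0.12) and PMEPA1 (−0.48 ± 0.08).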

How the data were processed

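RNA of 8 libraries of H9-derived 2D hIECs, with an integrity number above 7.5, was poly-A selected and sequenced without strand information as paired reads of 100 bases. The authors used Cutadapt 3.7 for adapters and Sickle 1.33 for trimming (Phred score of 20, reads of at least 50 bases), HISAT2 2.2.1 for alignment to GRCh38 and StringTie 2.2.0 for quantification. The annotation release is not given in the sources used here. The authors deposited FPKM values, 1 per gene and library, and all columns were used. Because counts are absent, no count model was fitted, the depth shows only through the lowest value above 0, and no fold is given where a group is at 0.

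The scale was log2(FPKM + 1), with a pseudocount of 1. Genes with 1 FPKM or more in 2 or more libraries (14206) entered 1 fit of limma 3.58.1 in R 4.3.3, which used all 8 libraries and let the variance follow the mean. Adjustment was by Benjamini and Hochberg over all of these genes in each of 5 comparisons: inflamed against normal hIECs without and with PM10, PM10 in normal and in inflamed hIECs, and the interaction. The script was tested on simulated data. The members and lists were chosen with earlier results of these data known. Every member may be named. Full values go to members called with a difference of at least 0.5 in that comparison and to a fixed set of ligands and ID genes, and up to 4 genes of each other list are named by their rank among those called in inflamed against normal hIECs. Values of 3 genes of these lists and members are not reported here. Gene positions and overlaps are from GENCODE release 44, which held 99.5% of the files' identifiers and all 56 members. Transcripts were aligned with MAFFT 7.526. Replicate numbers did not pair the samples: deviations of same-numbered libraries correlated at −0.0015 to 0.0793. Alternatives changed the pseudocount, the filter, the scaling, the gene types tested, the groups fitted and the trend, added the replicate number as a block, and left out each library in turn. Python 3.11.15 with pandas 2.3.3 and matplotlib 3.10.9 made the tables and figures.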

Additional observations from a re-analysis of the deposited data

Results flagged for a closer look

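The effect of PM10 differed between inflamed and normal hIECs, by limma's interaction term with adjustment over all genes tested, for 11 members. The values are differences of differences on the log2(FPKM + 1) scale, and a positive value means a higher effect of PM10 in inflamed hIECs. INHBA had 1.52 ± 0.13 (SE), BAMBI 1.02 ± 0.12 and GDF15 −1.20 ± 0.12. BMP6 had 1.18 ± 0.14, which is the size of its fall in normal hIECs, since it was listed at 0 in all 4 libraries with cytokines and could not fall further. That fall itself had to occur by the filter. GDF10 had −0.79 ± 0.14 and was listed at 0 in the libraries with both agents. Its call was lost without any 1 of the normal PM10, inflamed or inflamed PM10 libraries, at −0.86 to −0.71. GDF6 had 0.84 ± 0.15, TGFB2 0.43 ± 0.10 and TGFBR2 0.41 ± 0.08. ID1 had −0.46 ± 0.07, FST −0.45 ± 0.10 and SMAD3 −0.36 ± 0.08, the smallest of the 11. The call of SMAD3 was lost without any 1 of the normal PM10, inflamed or inflamed PM10 libraries, at −0.39 to −0.33. It was also lost without the filter and with median centring, quantile normalization or the replicate number as a block. No group has the 4 libraries that a test for single deviating libraries needs.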

How the results depend on the processing

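No called difference of a member changed direction under any of the alternatives run. Of 96 called differences, 58 kept their call under every alternative, 38 lost it under at least 1, and 12 of these only when a library was left out. The number of members called for PM10 in normal hIECs was 8 and fell to 1 when the fit held only those 2 groups, as calls over all genes fell from 1311 to 23. The number called for PM10 in inflamed hIECs was 17 and fell to 11 with a minimum of 5 FPKM, which tests fewer genes. Over all genes, 1833 of 8896 were called with that minimum, beside 2165 of 14206 in the main fit. Past 2-fold, 5 members instead of 2 were counted for PM10 in inflamed hIECs with a pseudocount of 0.1, and 0 instead of 1 for PM10 in normal hIECs with a minimum of 5 FPKM, which leaves BMP6 out. With single libraries left out, the counts called ranged from 22 to 27 for cytokines without PM10, 26 to 32 with PM10, 2 to 12 for PM10 in normal hIECs, 9 to 18 for PM10 in inflamed hIECs and 4 to 12 for the interaction. Calls over all genes also fell throughout for cytokines without PM10 and moved both ways in the other comparisons. With 1 library left in a group, that library is assumed to vary like the other groups. With the replicate number as a block, 26, 31, 7, 15 and 8 members were called in the same order, where 29, 31, 8, 17 and 11 were called without it. Over all 14206 genes, 7957, 9264, 1051, 1966 and 762 were called with the block, and 7988, 9286, 1311, 2165 and 937 without it. The call of BMP6 and of BMP7 for cytokines with PM10 was lost with quantile normalization only, at −0.18 and −0.25. Calls that quantile normalization lost among other alternatives were those of GDF7, SMAD6 and SMAD3 for cytokines with PM10. The same holds for SMAD1 and SMAD3 for PM10 in normal hIECs, GDF10 for PM10 in inflamed hIECs, and FST and SMAD3 for the interaction. FPKM without counts leaves differences near the lowest level above 0 (0.164 to 0.228 FPKM) uncertain, which touches GDF10, BMP6, BMP2, LEFTY1 and BMP5.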
